A study of Homo sapiens with 6 samples.

Results

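The set comprises CHAC1 and 9 regulators of the integrated stress response, which are DDIT3, ATF3, ATF4, ATF5, TRIB3, SESN2, PPP1R15A, CEBPB and CEBPG. CHAC1 was selected on its log2 fold change between shPRKCN and shNT in these same libraries, where it was much lower, and the other 9 were chosen for their place in the pathway with results of these data already known. All 10 were listed among 21850 genes, and all 10 were among the 13971 genes kept by the filter on low counts. Since the choice rested on this contrast, the values of the 10 genes are given as a description, with no p-value for any of the 10. Calls on them by the limits of the fit across all genes are not read as evidence. RNA was sequenced from the human multiple myeloma line MM.1S on day 3 after transduction with lentivirus carrying a short hairpin RNA against PRKCN (shPRKCN, 3 libraries) or a scramble hairpin (shNT, 3 libraries). PRKCN is the older name of PRKD3, which encodes protein kinase D3. Both groups therefore carried a hairpin vector, a single cell line was used, and the labels do not say which of the study's hairpins was sequenced. The study's methods describe sorting of cells positive for the vector's green fluorescent protein. Nothing states that the 3 libraries of a group came from separate cultures, so p-values measure only the spread between these libraries, which may be technical.

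The integrated stress response is a shared route by which cells answer endoplasmic reticulum stress, amino acid shortage, heme shortage and double-stranded RNA. Separate kinases phosphorylate the translation factor eIF2, which lowers general protein synthesis while the mRNAs of ATF4 and ATF5 are translated better through short upstream reading frames. ATF4 then acts with C/EBP partners on genes for amino acid supply and stress adaptation, DDIT3 (CHOP) and ATF3 extend the programme, and PPP1R15A (GADD34) brings the phosphatase that reverses the first step. CHAC1, a late target, encodes an enzyme that breaks down glutathione. Plasma cells and myeloma cells secrete much immunoglobulin and rely on the related unfolded protein response. RNA levels do not show the translational step of this pathway.

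The targeted gene was lower in every library labelled shPRKCN. PRKD3 (chr2:37250502-37324833, GRCh38.p14) had 44913, 47712 and 45531 counts in shNT and 19979, 18253 and 19998 in shPRKCN, so that 41.0% of the shNT level remained (log2 fold change -1.29, SE 0.034). Library totals ran from 35625564 to 37730003 counts. All 9 plasma cell and myeloma markers had at least 10 counts in every library, with a summed level of 9207 to 9327 CPM (counts scaled to library size) in shNT and 7920 to 8044 in shPRKCN. Most of that sum was JCHAIN, at 5300 to 5517 CPM over all libraries. Ranges over all libraries were wider for IRF4 (170 to 634 CPM), XBP1 (370 to 932) and TNFRSF17 (60.5 to 140), and narrower for SDC1 (871 to 1052) and CD38 (33.2 to 38.7). For XBP1 the width lay between the groups, at 894 to 932 CPM in shNT and 370 to 385 in shPRKCN. The study reported lower IRF4 and TNFRSF17 (BCMA) after knockdown. Of the B cell markers, MS4A1, PAX5 and CD22 stayed at 0 to 8 counts while CR2 had 883 to 2271, so the summed level was 24.1 to 26.6 CPM in shNT and 56.9 to 61.2 in shPRKCN. Of the T and NK cell markers, CD3D had 0 to 1 counts and CD8A 2 to 10 while CD3E had 379 to 1150, with a summed level of 10.5 to 11.4 CPM in shNT and 27.0 to 31.2 in shPRKCN. Myeloid markers had 0 to 9 counts, and of the stromal markers COL1A1 had 3 to 6 and PDGFRB 15 to 50. The part of these markers in the results below was not tested. In bulk RNA, fewer cells of a type and less RNA per cell cannot be told apart.

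Promoter sequences are shown for CHAC1, ATF3 and PPP1R15A, which hold a full response element of the ATF and C/EBP factors upstream of the gene, since several of the 10 genes are both members and targets of that family. CEBPG holds one too, before a start that lies within the gene, and its match is given by its letters alone. Sequences are from RefSeq on GRCh38.p14, plus strand, 5′ to 3′, with the matched element in capitals. All 10 genes had promoter windows, 19 in all, spanning 250 bases before to 50 after an annotated start.
CHAC1 (chr15:40953236-40953295): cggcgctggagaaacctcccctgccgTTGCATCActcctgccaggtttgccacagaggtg
ATF3 (chr1:212565190-212565249): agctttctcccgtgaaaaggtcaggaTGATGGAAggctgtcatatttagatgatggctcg
PPP1R15A (chr19:48872337-48872396): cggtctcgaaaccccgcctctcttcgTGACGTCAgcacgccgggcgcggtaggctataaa
The C/EBP-ATF response element, searched as TGATGNAA on both strands, lay 209 bases before the start of CHAC1. It lay 191 bases before the first annotated start of ATF3 and 42 before the downstream start of CEBPG, where it read TGATGCAA. ATF3 had 2 windows, and the one at its other start held no match to this element. The C/EBP-ATF response element occurred in 3.62% of all 35116 promoter windows in the table. The cyclic AMP response element, searched as TGACGTCA, lay 58 bases before the start of PPP1R15A and occurred in 1.85% of windows. The AP-1 element, searched as TGANTCA, occurred in the windows of DDIT3 and ATF5 and in 7.71% of all windows. The element UPRE, searched as TGACGTGG, and the element ERSE, searched as CCAAT, then any 9 bases, then CCACG, matched no window of the 10 genes, and occurred in 0.729% and 0.0769% of all windows. A match describes the letters in the window and does not show that a factor binds there.

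CHAC1 was far lower than the other 9 genes after knockdown, at 12.3% of the shNT level. DDIT3, ATF3, SESN2 and PPP1R15A lay between 41.8% and 49.1%, CEBPB and CEBPG were at 66.7% and 65.4%, TRIB3 was at 75.8%, ATF4 was at 82.7%, and ATF5 was at 113%. Expression is given as raw counts, as CPM on TMM-scaled library sizes, and as log2 fold change of shPRKCN over shNT from edgeR's quasi-likelihood fit across the 13971 genes. Calls required an adjusted p (Benjamini-Hochberg) under 0.05 together with a log2 fold change of more than 0.58 in size, the limits that the study used. By these limits 7 of the 10 genes were called lower, beside 10.6% of all genes tested called lower and 6.15% called higher. The number was 6 with DESeq2, library sizes alone, no filter on low counts, upper-quartile factors or limma on log2(FPKM + 0.1), and 5 with limma on log2(FPKM + 1). By adjusted p alone 9 of the 10 were lower and ATF5 was higher, beside 27.8% and 26.5% of all genes. The libraries of the groups did not overlap for any of the 10 genes, with 9 lower and ATF5 higher, beside 29.8% and 29% of all genes. Nothing is read from these counts, because the contrast helped to choose the genes. The median log2 fold change was -0.82 over the 10 genes and 0.0012 over all genes tested.

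**Figure D1:**
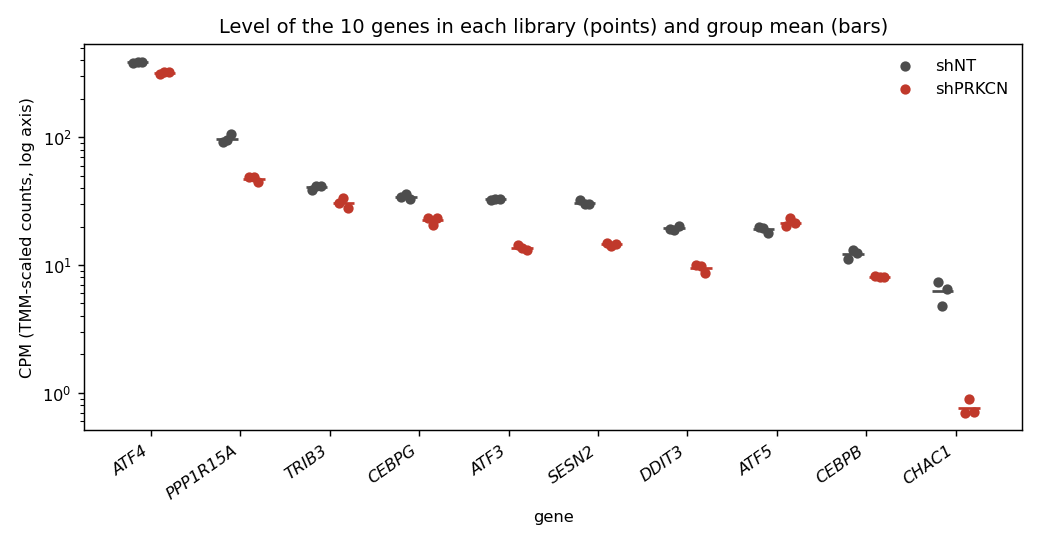
CPM of each of the 10 genes in the 3 shNT and 3 shPRKCN libraries, on a log axis, with points for libraries, bars for group means and genes ordered by shNT mean. CHAC1 shows the widest gap, from a mean of 6.22 to 0.765 CPM, and ATF5 alone has its shPRKCN points above its shNT points.

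ATF4, the central translationally controlled activator of the pathway, is encoded at chr22:39520559-39522686. It was counted 13542, 14382 and 14531 times in shNT and 11650, 12155 and 12274 times in shPRKCN. Every shPRKCN library lay below every shNT library, by a small margin. The mean went from 388 ± 3.86 to 321 ± 7.77 CPM (SD, n = 3), a log2 fold change of -0.27 (SE 0.034, 95% interval -0.34 to -0.21). ATF4 had the lowest biological coefficient of variation of the 10 genes, as estimated in the fit, below that of all but 0.995% of genes tested. Processed pseudogenes of ATF4 exist elsewhere in the genome and are not among the listed genes, and how reads shared with them were counted is not given in the sources used here. The transcript of MIEF1, a gene 1563 bases from ATF4 in the annotation, was counted 1328 to 1408 times in shNT libraries and 1746 to 1894 times after knockdown.

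ATF5, a relative of ATF4 with the same kind of translational control, is encoded at chr19:49928906-49933935. Its counts were 704, 712 and 663 in shNT and 749, 861 and 808 in shPRKCN. It was the gene of the set with a higher level after knockdown, and the groups were close to each other, at 19.0 ± 1.16 and 21.5 ± 1.56 CPM. The log2 fold change was 0.18 (SE 0.073, 95% interval 0.03 to 0.32). Leaving out each library in turn gave 0.12 to 0.23. NUP62 overlaps ATF5 on the opposite strand by 1062 bases and was counted 3988 to 4298 times in shNT libraries and 4075 to 4274 times after knockdown, and IL4I1, which overlaps by 838 bases on that strand, was counted 75 to 84 and 90 to 123 times, higher after knockdown as ATF5 was. AC011452.1, annotated on the strand opposite to ATF5, overlaps it by 5234 bases and is not among the listed genes. Since it is not stated whether counting used strand, reads in these overlaps cannot be assigned to one gene.

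DDIT3 encodes CHOP, the factor linked to death of cells under prolonged endoplasmic reticulum stress, at chr12:57516588-57520517. Its counts were 681, 687 and 750 in shNT and 373, 368 and 327 in shPRKCN. Each shPRKCN library held about the same reduced level. The mean went from 19.3 ± 0.675 to 9.50 ± 0.771 CPM, a log2 fold change of -1.03 (SE 0.087, 95% interval -1.20 to -0.85). AC022506.1, a gene annotated on the same strand, overlaps DDIT3 by 2769 bases and is not among the listed genes. MBD6 and MARS1 overlap DDIT3 on the opposite strand by 1028 and 982 bases. MBD6 was counted 1740 to 1867 times in shNT libraries and 1852 to 1938 times after knockdown, so its counts were not lower. MARS1 was lower, with 4653, 4885 and 4950 counts in shNT and 3990, 4061 and 4030 in shPRKCN (log2 fold change -0.30, SE 0.039, adjusted p = 6.7e-10 in edgeR's quasi-likelihood test). How many reads in these overlaps were given to which gene was not tested.

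ATF3, an early stress-induced factor that can repress or activate its targets, is encoded at chr1:212565407-212620777. Its counts were 1146, 1204 and 1223 in shNT and 532, 508 and 495 in shPRKCN. After scaling for library size, the shNT libraries were nearly identical, with a coefficient of variation of 0.465%. The mean went from 32.6 ± 0.152 to 13.6 ± 0.607 CPM, a log2 fold change of -1.26 (SE 0.069, 95% interval -1.39 to -1.12). This was the second largest decrease among the 10 genes.

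CEBPB and CEBPG encode C/EBP proteins that pair with ATF4, and CEBPG in particular forms heterodimers with it. CEBPB (chr20:50190583-50192690) had 390, 479 and 466 counts in shNT and 306, 301 and 307 in shPRKCN, or 12.2 ± 1.02 and 8.12 ± 0.061 CPM. The shNT libraries of CEBPB were more spread than its shPRKCN libraries. CEBPG (chr19:33373709-33382686) had 1198, 1316 and 1226 counts in shNT and 871, 760 and 883 in shPRKCN, or 34.2 ± 1.54 and 22.3 ± 1.64 CPM. The log2 fold changes were -0.58 (SE 0.102, 95% interval -0.79 to -0.38) for CEBPB and -0.61 (SE 0.063, 95% interval -0.74 to -0.49) for CEBPG. Both just passed the fold limit, at -0.584 and -0.612, and TRIB3 at -0.40 was the nearest gene that did not. CEBPB no longer passed it without shNT library 2 (-0.53), shNT library 3 (-0.57), shPRKCN library 2 (-0.58) or shPRKCN library 3 (-0.57). CEBPG did so without shNT library 2 (-0.57) or shPRKCN library 2 (-0.55), and the number of the 10 genes called lower was 5 without either of these libraries. CEBPB also missed the limit with DESeq2 (-0.58), library sizes alone (-0.56), no filter on low counts (-0.58), upper-quartile factors (-0.58) and limma on log2(FPKM + 0.1) (-0.55) or log2(FPKM + 1) (-0.46), and passed in 5 of 16 alternatives. CEBPG missed it with limma on log2(FPKM + 1) (-0.51), with or without a filter on FPKM, and passed in 12 of 16. The antisense transcript CEBPB-AS1 overlaps CEBPB by 765 bases and was counted 14 to 29 times in shNT libraries and 11 to 14 times after knockdown.

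CHAC1, the glutathione-degrading enzyme, is encoded at chr15:40953471-40956512. It had 260, 175 and 245 counts in shNT and 26, 33 and 27 in shPRKCN. The lowest shNT library was still well above the highest shPRKCN library, although the shNT libraries varied more than for any other gene of the set, with a coefficient of variation of 21.4%. The mean was 6.22 ± 1.33 CPM in shNT and 0.765 ± 0.106 CPM in shPRKCN, an 8.13-fold difference. The log2 fold change was -3.02 (SE 0.205, 95% interval -3.43 to -2.61), the 12th lowest of the 13971 genes tested, and stayed between -3.17 and -2.88 when each library was left out in turn. The level was low in both groups, so the scale matters. On log2(FPKM + 1) of the deposited FPKM the same libraries gave -0.83, a value that also depends on the gene length used. CHAC1 had a biological coefficient of variation of 0.123, higher than that of 76.1% of genes tested.

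Among the regulators that feed back on the pathway, TRIB3 encodes a pseudokinase that binds ATF4 and CHOP. TRIB3 (chr20:380760-397559) had 1359, 1527 and 1554 counts in shNT and 1142, 1240 and 1070 in shPRKCN. The difference was modest, from 40.5 ± 1.75 to 30.7 ± 2.59 CPM, with a log2 fold change of -0.40 (SE 0.059, 95% interval -0.52 to -0.28). SESN2 encodes a leucine-binding protein that restrains mTORC1. SESN2 (chr1:28259518-28282491) had 1136, 1113 and 1117 counts in shNT and 560, 523 and 557 in shPRKCN. All shPRKCN libraries were at a similar reduced level, and the mean went from 30.8 ± 1.24 to 14.6 ± 0.471 CPM, with a log2 fold change of -1.08 (SE 0.069, 95% interval -1.21 to -0.94). PPP1R15A (chr19:48872421-48876058), the stress-induced partner of protein phosphatase 1, had 3213, 3495 and 3959 counts in shNT and 1824, 1824 and 1689 in shPRKCN. The mean went from 97.3 ± 7.62 to 47.5 ± 2.59 CPM, a log2 fold change of -1.04 (SE 0.049, 95% interval -1.13 to -0.94). Along with DDIT3, ATF3 and CHAC1, SESN2 and PPP1R15A passed the limits in every alternative that was run on them. The alternatives reuse the same libraries, so this describes the calls only.

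Levels between genes were compared per length, as FPKM in the deposited table. In shNT the order was ATF4 (49.9 ± 0.584), PPP1R15A (41.1 ± 3.22), DDIT3 (16.3 ± 0.551), TRIB3 (13.0 ± 0.581), ATF3 (11.3 ± 0.072), SESN2 (8.82 ± 0.346), CEBPG (7.89 ± 0.366), ATF5 (6.83 ± 0.415), CEBPB (5.73 ± 0.490) and CHAC1 (1.02 ± 0.216), and the libraries of no neighbouring pair overlapped. In shPRKCN, ATF4 (41.8 FPKM) and PPP1R15A (20.3 FPKM) remained first and CHAC1 (0.126 FPKM) last. TRIB3 (9.25 to 10.7 FPKM) then ranked above DDIT3 (8.11 FPKM) and ATF5 (7.82 FPKM), whose libraries overlapped, and ATF3 (4.79 FPKM) overlapped with CEBPG (5.23 FPKM). These levels depend on the gene length behind the FPKM. The length that the deposited values imply was 6081 bases for CHAC1 and 7716 for ATF4, longer than their whole RefSeq spans of 3042 and 2128 bases, which was so for 177 of 20688 genes (0.856%). With the summed exons of GENCODE release 29 as length, a choice made after seeing the data, CHAC1 in shNT was at 3.00 ± 0.637 FPKM and ATF4 at 153 ± 1.79 FPKM. ATF4 and PPP1R15A stayed at the top and CHAC1 at the bottom of that order, while SESN2 (8.84 FPKM) passed ATF3 (8.02 FPKM), and overlap appeared between ATF3 and CEBPG (7.69 FPKM) and between ATF5 (6.39 FPKM) and CEBPB (6.18 FPKM). The fold change from counts does not depend on gene length. On log2(FPKM + 1) or log2(FPKM + 0.1) it does, through the pseudocount.

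**Figure D2:**
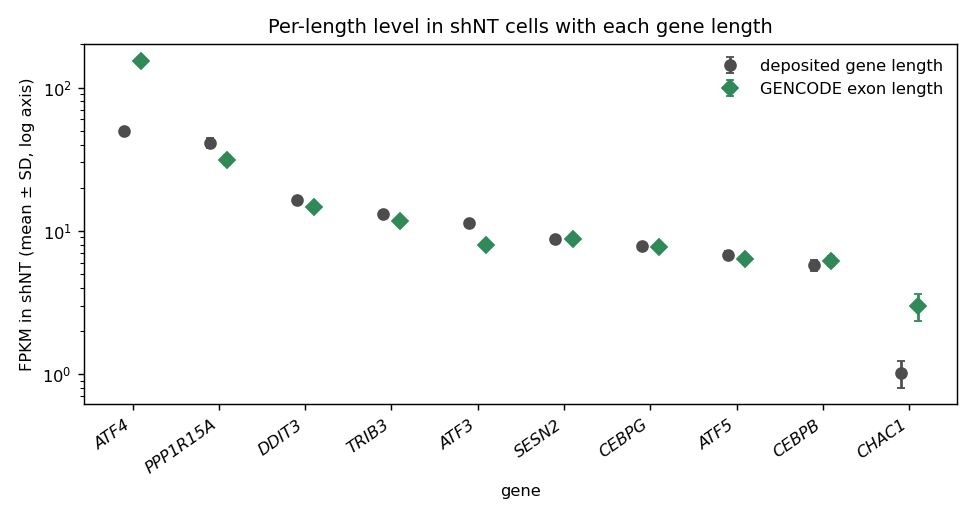
FPKM of the 10 genes in shNT (mean ± SD of 3 libraries, log axis) with the gene length behind the deposited values and with the GENCODE exon length. The choice of length moves ATF4 (49.9 and 153 FPKM) and CHAC1 (1.02 and 3.00 FPKM) most, and PPP1R15A and ATF3 to a lesser extent.

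The list of nearest relatives of the 10 genes was drawn up with results of these data known, so its shares are a description. Of 10 such paralogs, 7 were tested, 6 were lower at an adjusted p under 0.05 in edgeR's quasi-likelihood test and 4 of these passed the fold limit, beside 27.8% and 10.6% of all genes, with a median log2 fold change of -0.60. TRIB1, which recruits a ubiquitin ligase to C/EBP proteins, fell from 84.1 ± 0.808 to 39.0 ± 1.18 CPM (log2 fold change -1.11, SE 0.048, adjusted p = 3.8e-31), whereas TRIB2 was at 42.0 ± 1.38 and 44.0 ± 1.26 CPM (log2 fold change 0.07, 95% interval -0.04 to 0.17, adjusted p = 0.296). Among sestrins, SESN3 fell from 57.7 ± 1.17 to 33.3 ± 1.59 CPM (log2 fold change -0.79, SE 0.053, adjusted p = 2.0e-21) and SESN1 fell slightly (log2 fold change -0.12, SE 0.044, adjusted p = 0.016). CHAC2, which also degrades glutathione but is known as the constitutive form, fell from 12.3 ± 1.00 to 8.13 ± 0.479 CPM (log2 fold change -0.60, SE 0.102, adjusted p = 7.2e-07). Without shNT library 3 or shPRKCN library 3 its log2 fold change was -0.55, which did not pass the fold limit. With limma on log2(FPKM + 0.1) or log2(FPKM + 1), 2 paralogs were called lower, and CHAC2 was not among them. PPP1R15B, the constitutive counterpart of PPP1R15A, fell by 0.38 on the log2 scale (SE 0.036, adjusted p = 1.9e-14) and did not pass the fold limit. JDP2, a close relative of ATF3, had 22, 28 and 27 counts in shNT and 9, 5 and 13 in shPRKCN (log2 fold change -1.54, SE 0.458, adjusted p = 0.0033), and did not pass with limma on log2(FPKM + 0.1) (adjusted p = 0.079) or on log2(FPKM + 1) (adjusted p = 0.214). CEBPA had 0 to 7 counts and CEBPD 0 to 3, too few to test, and CEBPE was not listed.

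**Figure D3:**
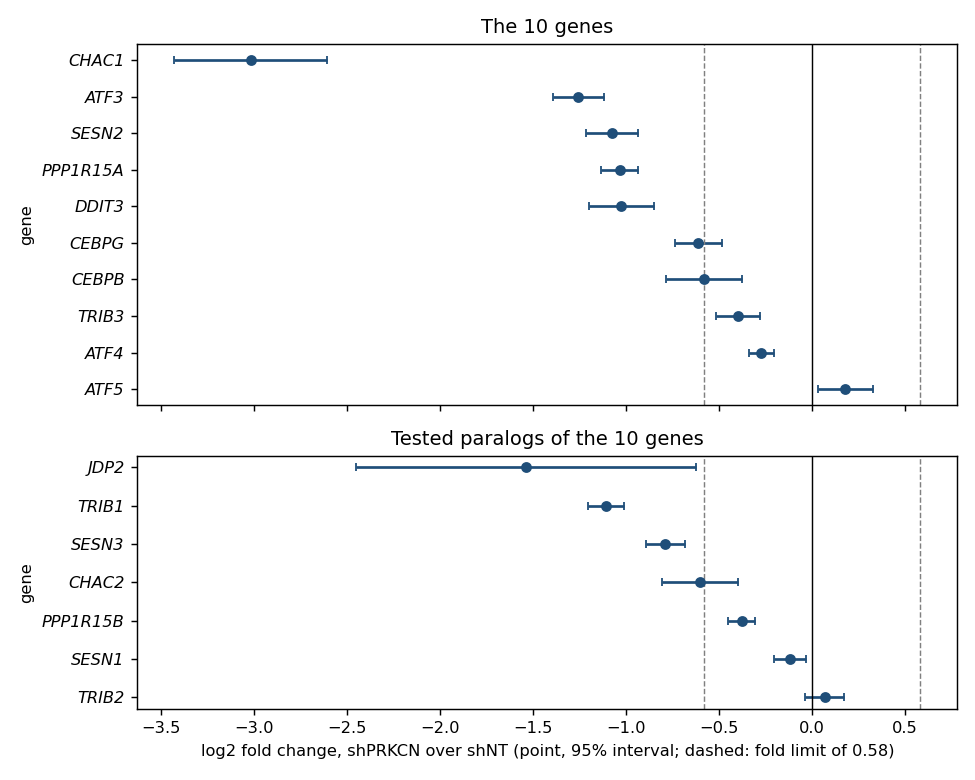
Log2 fold change of shPRKCN over shNT with its 95% interval for the 10 genes (upper) and their 7 tested paralogs (lower), with dashed lines at the fold limit of 0.58. CHAC1 stands at -3.02, well apart from the others, and TRIB2 and ATF5 lie on the positive side.

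The machinery above ATF4 had shares of lower and higher genes near those of all genes. The list held 24 genes for eIF2, its exchange factor, its kinases and its phosphatase, with related regulators and the separate initiation factors EIF2A and EIF2D. Of the 24, 8 fell (33.3%) and 5 rose at an adjusted p under 0.05, beside 27.8% and 26.5% of all genes. The median log2 fold change was 0.00035 against 0.0012 over all genes. EIF2AK3, which encodes the endoplasmic reticulum stress kinase PERK, was the one that also passed the fold limit. It had 2572, 2673 and 2495 counts in shNT and 1511, 1562 and 1659 in shPRKCN, a log2 fold change of -0.75 (SE 0.050, adjusted p = 2.2e-21). Of 12 tested ATF and C/EBP family factors outside the set, 8 fell (66.7%) and 2 rose by adjusted p, beside 27.8% and 26.5% of all genes, with a median of -0.18. The factors past the fold limit were JDP2 and XBP1, the transcription factor of the IRE1 arm and of plasma cells, which went from 913 ± 19.1 to 375 ± 9.06 CPM (log2 fold change -1.28, SE 0.033, adjusted p = 1.9e-43). XBP1 is also 1 of the 9 plasma cell markers.

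Genes known as targets of ATF4 for amino acid supply were mostly lower. Of 14 genes for amino acid synthesis and one-carbon metabolism, 12 fell by adjusted p, against 27.8% of all genes, and 5 fell past the fold limit, against 10.6%, with a median of -0.42. ALDH1L2, a mitochondrial folate enzyme, had 820, 1022 and 780 counts in shNT and 183, 153 and 140 in shPRKCN (log2 fold change -2.50, SE 0.104, adjusted p = 5.7e-32). PHGDH, the first enzyme of serine synthesis, kept 31.2% of its shNT level (log2 fold change -1.68, SE 0.086, adjusted p = 4.4e-27). GPT2, a mitochondrial alanine aminotransferase, kept 31.3% (log2 fold change -1.67, SE 0.075, adjusted p = 3.7e-30). ASNS, the asparagine synthetase gene that is often used as a readout of ATF4, was named after its values were seen. It had 66, 76 and 107 counts in shNT and 107, 66 and 95 in shPRKCN, a low level that overlapped between the groups (log2 fold change 0.07, 95% interval -0.36 to 0.50, adjusted p = 0.809). A difference of ASNS within that interval is not excluded.

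Of 11 tested amino acid transporters, 9 fell by adjusted p and 4 fell past the fold limit, beside 27.8% and 10.6% of all genes, with a median of -0.49. SLC7A11, the cystine importer that supplies glutathione synthesis, had 273, 345 and 291 counts in shNT and 148, 122 and 99 in shPRKCN (log2 fold change -1.34, SE 0.141, adjusted p = 7.9e-13). SLC36A4 (log2 fold change -0.61, SE 0.101, adjusted p = 4.5e-07) and SLC1A4 (log2 fold change -0.59, SE 0.033, adjusted p = 7.7e-25) were near the fold limit. SLC36A4 left it without shNT library 2 (-0.55) or shPRKCN library 2 (-0.57), SLC1A4 left it without shPRKCN library 1 (-0.57) or shPRKCN library 3 (-0.58), and 2 transporters passed without shNT library 2 or shPRKCN library 1. Of 13 genes for aminoacyl-tRNA synthetases and tRNA export, 10 fell and 2 rose by adjusted p, beside 27.8% and 26.5% of all genes, with a median of -0.29. NARS1, the asparaginyl-tRNA synthetase, was the one past the fold limit, a share of 7.69% beside 10.6% of all genes, at 148 ± 1.89 CPM in shNT and 69.2 ± 4.38 CPM in shPRKCN (log2 fold change -1.10, SE 0.042, adjusted p = 1.0e-33). Without shNT library 3 or shPRKCN library 2, 2 genes of this group passed. Of 17 tested further targets of ATF4 or CHOP, 14 fell by adjusted p and 8 fell past the fold limit, beside 27.8% and 10.6% of all genes, with a median of -0.54. The largest changes were in ADM2, a peptide hormone gene with 76, 100 and 86 counts in shNT and 28, 16 and 19 in shPRKCN (log2 fold change -2.09, SE 0.289, adjusted p = 4.3e-09), in TSPYL2, a nucleosome assembly relative (log2 fold change -1.35, SE 0.095, adjusted p = 2.8e-20), and in VLDLR, the very low density lipoprotein receptor gene (log2 fold change -1.12, SE 0.066, adjusted p = 3.1e-24).

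Autophagy and glutathione genes are given beside 27.8% of all genes lower and 26.5% higher by adjusted p. Of 15 autophagy genes linked to ATF4 or CHOP, 5 rose and 2 fell (13.3%) by adjusted p, with a median of 0.08. ULK1, the kinase that starts autophagy, was the one past the fold limit, with 461, 549 and 535 counts in shNT and 736, 820 and 878 in shPRKCN (log2 fold change 0.62, SE 0.079, adjusted p = 4.3e-10), and it fell short of the limit without shNT library 1 or shPRKCN library 3 (0.57 in each case). Of 12 genes for glutathione synthesis and breakdown, 4 rose and 4 fell (33.3%) by adjusted p, with a median of 0.08. Besides CHAC2 and SLC7A11, which are counted there too, GSR, the enzyme that regenerates reduced glutathione, passed the fold limit and rose from 87.4 ± 7.05 to 144 ± 2.17 CPM (log2 fold change 0.72, SE 0.043, adjusted p = 5.8e-24). Without shNT library 3 or shPRKCN library 3, SLC7A11 was the one lower gene of this group past the limit. Of 19 genes of the ATF6 and IRE1 arms of the unfolded protein response, 12 fell (63.2%) and 5 rose by adjusted p, beside 27.8% and 26.5% of all genes, with a median of -0.20. XBP1 and SEL1L, a subunit of the complex that removes misfolded proteins from the endoplasmic reticulum, were the ones past the fold limit, a share of 10.5% beside 10.6% of all genes, and SEL1L had a log2 fold change of -1.28 (SE 0.035, adjusted p = 6.3e-42).

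Over all these lists together, 137 distinct genes outside the set were tested. Of them 25 (18.2%) were called lower and 2 (1.46%) higher, against 10.6% and 6.15% of all genes. By adjusted p alone 78 (56.9%) fell and 23 (16.8%) rose, against 27.8% and 26.5%. Their median log2 fold change was -0.17. The lists were drawn up with results of these data known, so these shares are a description of the lists.

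**Figure D4:**
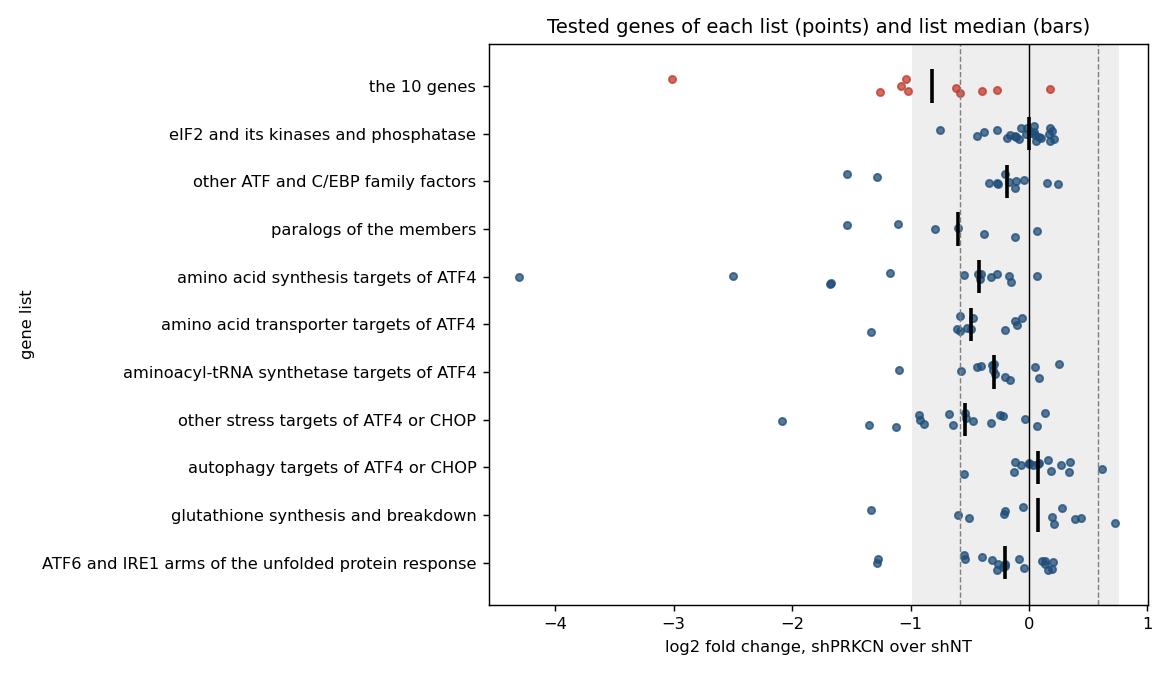
Log2 fold change of shPRKCN over shNT for each tested gene (points) of the set and of the 10 lists, with list medians as bars, the fold limit as dashed lines and the 5th to 95th percentile of all genes tested (-0.98 to 0.75) shaded. Medians of the 10 genes, their paralogs and the amino acid and stress target lists lie below 0, and those of the eIF2, autophagy and glutathione lists lie near 0.

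Genes with the profile most like that of a member of the set were sought among 11658 genes averaging at least 50 counts, by the root mean square distance of log2 CPM centred over the 6 libraries. With 6 libraries in 2 groups, likeness of this kind mainly reflects a fold change of similar size. The genes nearest to CHAC1 were FOS (distance 0.227), FOSB (0.271) and NCAM1 (0.302). FOS, an immediate-early factor, was counted 4897 to 5206 times in shNT libraries and 794 to 845 times after knockdown, and NCAM1, which encodes CD56, was counted 225 to 247 and 28 to 36 times. The genes nearest to DDIT3 were NUCB2 (0.039), HBD (0.042) and OR4C6 (0.047), and PPP1R15A came 8th (0.053). The genes nearest to ATF4 were GLT8D1 (0.012), RANBP3 (0.013) and PCBP1 (0.013). The other genes of the set lay at a distance of 0.863 or more from CHAC1.

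**Figure D5:**
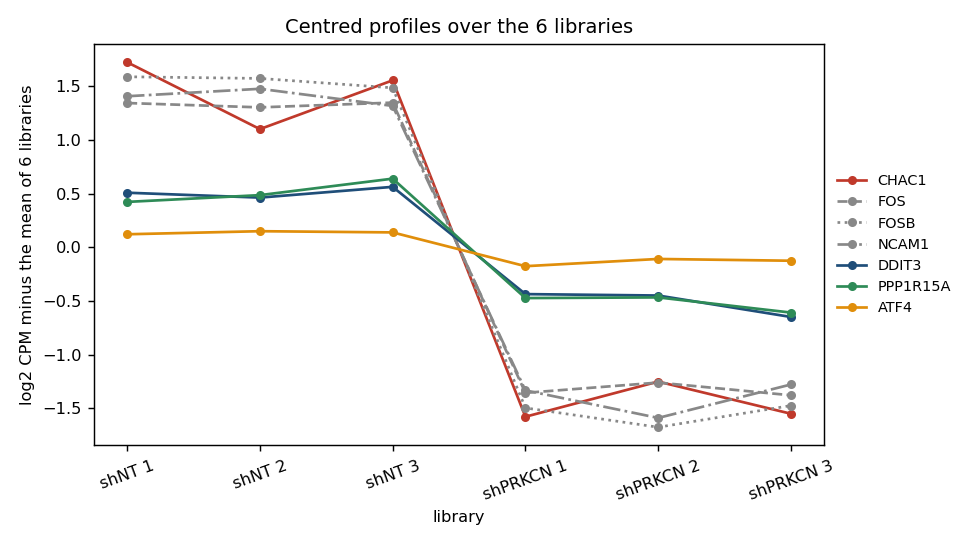
Log2 CPM of CHAC1, its 3 nearest genes, DDIT3, PPP1R15A and ATF4 in each of the 6 libraries, after subtracting the gene's mean over the libraries. DDIT3 and PPP1R15A nearly coincide (distance 0.053), ATF4 moves least, and CHAC1 varies more than FOS, FOSB and NCAM1 among the shNT libraries.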

How the data were processed

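The authors deposited raw counts per gene, without normalization, and FPKM of the same genes, each with 1 column per library. The deposited FPKM follow from the counts, the library totals and 1 length per gene. The submitters' processing notes name FastQC, HISAT2, StringTie and GRCh38.p14. The counting program, the annotation and strandedness are not given in the sources used here, and the study's methods name DESeq2. All columns were matched to samples by their labels.

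Counts were tested with edgeR 4.0.16 (R 4.3.3, TMM, filterByExpr, quasi-likelihood) over 13971 genes with Benjamini-Hochberg adjustment. Standard errors are the log2 fold change divided by the square root of F. Libraries of a group differed by more than sampling noise (chi-square per degree of freedom 3.46 to 4.99), so none was a copy of another. This does not show whether they came from separate cultures. On simulated data for this comparison, with 200 changed genes and 12907 genes tested, edgeR recovered 100% and called 5 unchanged genes. The planted changes were all well past the fold limit, in well-counted genes, with the same dispersion for every gene. The simulation therefore does not cover genes near the fold limit or with low counts. Gene positions and promoters are RefSeq's, overlaps are GENCODE release 29's, and Python 3.11.15 was used. Intervals cover the spread between libraries.

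The genes of the set and the lists were chosen with earlier results of these data known. The genes named were the set, PRKD3, all paralogs, of each other list the 3 called genes with the largest change and a mean of at least 50 counts, and the 3 nearest profiles of CHAC1, DDIT3 and ATF4, and exceptions are stated. Alternatives tried were other scalings (RLE, upper quartile, library size alone), DESeq2 1.42.0, other filters, a replicate block, leaving out single libraries, no fold limit, and limma 3.58.1 on FPKM with a pseudocount of 1 or 0.1. Protein sequences were not used here.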

Additional observations from a re-analysis of the deposited data

How the results depend on the processing

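CHAC1, DDIT3, ATF3, SESN2 and PPP1R15A passed both limits in every alternative run on them, PRKD3 stayed between -1.31 and -1.25, and no result reversed. For the genes of the set this reuses the contrast that helped to choose them, so it is a description and no independent support. No scaling moved the median of all genes by more than 0.1 on the log2 scale. Counts and folds of low genes shrank on the FPKM scale, where a pseudocount weighs more on low values. CHAC1 was not among the genes kept by the filter on the deposited FPKM, where its shNT libraries lay at 0.779 to 1.20. With the GENCODE exon length they lay at 2.30 to 3.55 FPKM, and the filter was not run with that length.

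With limma on log2(FPKM + 1), 651 genes were called lower and 317 higher, with 15 pathway genes lower and 1 higher, 1 other ATF or C/EBP factor, 2 paralogs, 0 transporters, 5 other stress targets and 0 glutathione genes lower, and 0 autophagy genes higher. Requiring in addition an FPKM of at least 1 in 3 libraries gave 635 lower and 310 higher, 4 of the set, and the same list counts (15, 1, 1, 2, 0, 5, 0 and 0). With log2(FPKM + 0.1), the lower counts were 1 other factor, 2 paralogs, 1 transporter and 1 glutathione gene. A minimum of 10 counts gave 1 other factor. Scaling by library size alone, no filter and upper-quartile factors each gave 2 transporters. Of the set, 6 genes were lower with DESeq2 and with each of these 3, and 5 with log2(FPKM + 1).

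With no fold limit, 3877 genes were lower and 3700 higher, 1 gene of the set was higher, and 78 pathway genes were lower and 23 higher. By list, lower and higher counts were then 8 and 5 for eIF2, 8 and 2 for other factors, 10 and 2 for synthetases, 2 and 5 for autophagy, 4 and 4 for glutathione, and 12 and 5 for the ATF6 and IRE1 arms, with 12 synthesis genes, 9 transporters and 14 other stress targets lower.

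Leaving out 1 library gave 5 to 7 genes of the set lower, 1 to 2 pathway genes higher, 2 to 4 transporters lower, 1 to 2 synthetases lower, 0 to 1 autophagy genes higher and 1 to 2 glutathione genes lower. Where not stated, the cause was not tested.

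Replicate numbers are shared by both groups, but deviations of same-numbered libraries correlated at -0.097, -0.010 and -0.039, and 0 of 6 libraries correlated best with its own number. No pairing by number was seen, although 3 libraries per group cannot exclude a weak one. With the replicate block, 1463 genes were called lower and 854 higher, 7 of the set were lower, and PRKD3 was at -1.29.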
